A study of Arabidopsis thaliana with 4 samples.

Results

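The genes described here make the cellulose and the xylan of the secondary wall, the thick wall that xylem vessels and fibres lay down once they stop growing. The group holds 10 such genes, among the 27444 nuclear protein-coding genes of Arabidopsis thaliana. It is not a full list, and further genes of cellulose and xylan synthesis are in a wider wall list below. They are the cellulose synthase genes CESA4, CESA7 and CESA8, the xylan backbone genes IRX9, IRX9-L, IRX10 and IRX14, and the reducing-end genes IRX8, FRA8 and PARVUS. They were chosen by name and not by a measured value, but with earlier results of these data known. A gene counted as carrying a peak where the authors' deposited gene table assigned it one. By that rule 5 of the 10 genes carried a peak (50%), with 6 of the 5390 MYB67 peaks between them, against 14.7% of all nuclear protein-coding genes.

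The peaks came from DNA affinity purification sequencing (DAP-seq), which mixes a tagged transcription factor made in a cell-free extract with purified, sheared genomic DNA and sequences what stays bound. MYB67, an R2R3 MYB factor studied for its part in the maturation of phellem, the suberised outer layer of the thickened root, was fused to a Halo tag and made in wheat germ extract in 2 libraries, and the Halo tag alone, from an empty vector, was used in 2 others. The DNA in both groups came from Col-0 plants, from leaf per the protocol, although the libraries carry the tissue label root. Such DNA has no chromatin and the assay measures no expression, so a peak is a place of binding in vitro. The files hold 1 peak list with no value for a single library, so depth is unknown, no value below has a replicate error, and no difference between genes was tested.

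Cellulose is spun from the plasma membrane by a rosette of synthase subunits. In secondary walls CESA4, CESA7 and CESA8 are all needed for a working complex, whereas CESA1, CESA3 and CESA6-type subunits serve the primary wall of growing cells. Xylan is the main hemicellulose of these walls in Arabidopsis. It is made in the Golgi, where IRX9, IRX10 and IRX14 act in lengthening the xylose backbone, and IRX8, FRA8 and PARVUS are needed for a short sugar sequence at its reducing end. Mutants of many of these genes have collapsed vessels, which gave the irregular xylem (IRX) names. MYB factors of the secondary wall programme bind short, C- and A-rich elements in the promoters of wall genes.

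The motif that the authors derived from the MYB67 peaks is of this kind. It is shown by the most frequent base at each position, because every site counted below was found with it, and capitals mark bases with a fraction over 0.8 in the deposited matrix.
MYB67 motif: tccACCtAcc
Over its 10 positions the deposited matrix held A at position 4 with a fraction of 0.997, C at position 6 with 0.997 and A at position 8 with 0.995, while other positions were mixed. Position 3 was C at 0.502 and T at 0.478, position 9 was C at 0.532 and A at 0.461, and position 7 was T at 0.689 and A at 0.304. Sites carry a q from the motif scanner FIMO, and a lower q marks a closer match. The lowest in the list was 0.00443, reached in 23 peaks, and the list ends at 0.05. The site list gives only the bounds of the peak that holds a site, so the letters bound at each gene are not shown here.

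IRX9 stood apart from the other genes of the group. It carried 2 peaks, and the stronger had a fold enrichment of 9.77, a ratio of signal over the background that the peak caller modelled. The remaining 4 genes with a peak lay between 2.95 and 4.68. Over the 4030 nuclear genes with an assigned peak the median of the strongest fold was 4.47, with quartiles of 3.78 and 5.66. The 5 genes had a median of 4.08, below that of all genes with a peak, and 3.78 without IRX9. By fold, 2 of the 5 lay above the median of all genes with a peak and 1, IRX9, above the upper quartile. By −log10 q only IRX9 lay above the median of all genes with a peak, which was 8.36.

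**Figure D1:**
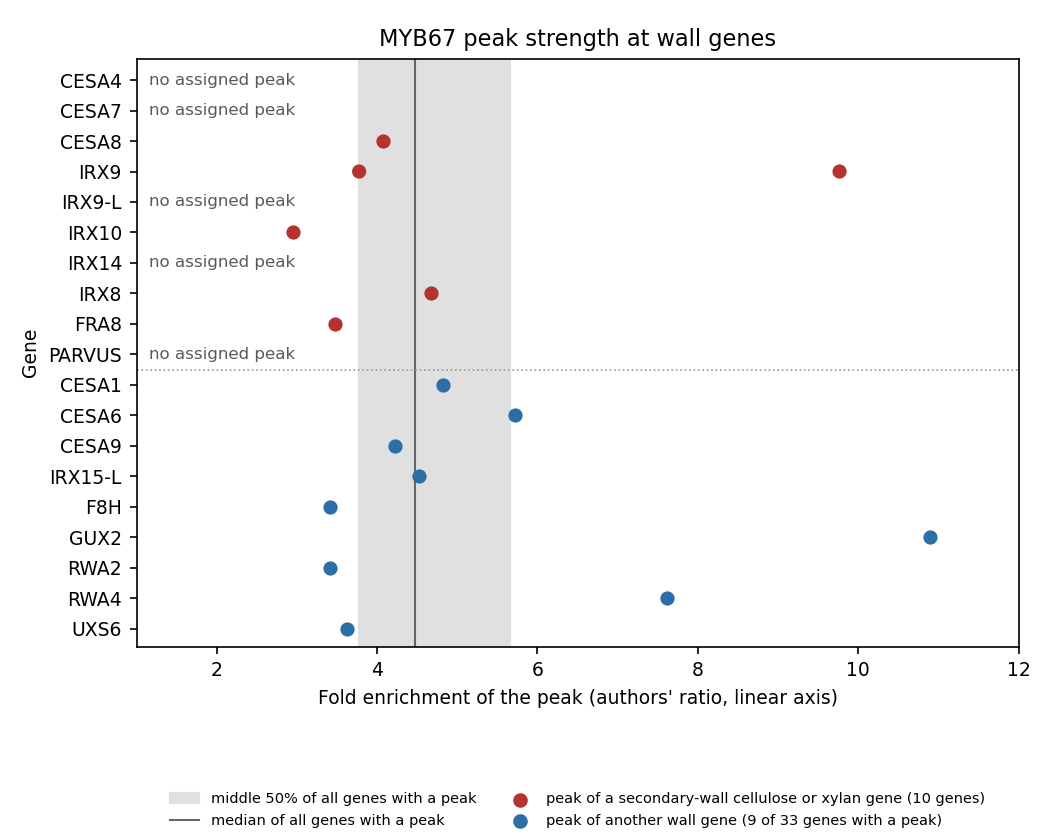
Fold enrichment of every peak assigned to the 10 secondary-wall genes (red, 1 row per gene) and to the 9 genes with a peak among 33 other wall genes (blue); the band spans the quartiles, 3.78 to 5.66, and the line the median, 4.47, of the strongest fold over 4030 genes with a peak. IRX9 at 9.77 is the only red point right of the band, and 5 genes have no assigned peak.

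Among the secondary-wall cellulose synthases 1 of 3 carried a peak, beside 14.7% of all genes, and 3 genes are few for such a share. The gene with a peak was CESA8 (AT4G18780, also called IRX1), with a peak of 228 bp at chr4:10316790-10317017 (TAIR10). Its fold was 4.08 and its −log10 q 6.19, which placed the gene at percentile 37.2 by fold among genes with a peak, somewhat below the middle. The peak held a single FIMO site, but a close one, with a q of 0.00633, and only 15.5% of all peaks held a site with a q as low. CESA4 (AT5G44030, IRX5) and CESA7 (AT5G17420, IRX3), its partners in the complex, had no assigned peak.

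Of the 4 xylan backbone genes, IRX9 and IRX10 carried peaks, beside 14.7% of all genes, and 4 genes are few for such a share. The stronger IRX9 peak (AT2G37090; chr2:15586850-15587139) was 290 bp wide, had a −log10 q of 33.3 and ranked 174th of 5390 peaks by fold. By its strongest peak IRX9 stood 132nd among the 4030 genes, at percentile 96.7. The second IRX9 peak (chr2:15588006-15588216) was far weaker, with a fold of 3.78, a −log10 q of 4.92 and a width of 211 bp. Their summits lay 1149 bp apart and 866 bp separated the peaks. IRX9 was 1 of 365 genes with more than 1 peak, 9.06% of the genes with a peak. The gap between its peaks was near the middle of those genes, whose smallest gaps had a median of 1106 bp and quartiles of 468 and 2187 bp. The unevenness of its peaks was not: the stronger fold was 2.59 times the weaker, against a median of 1.35 in the 332 genes with exactly 2 peaks, and 12 of them had a higher ratio.

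The stronger IRX9 peak was also the one with most sites. It held 5 FIMO sites, with q values of 0.00904, 0.0148, 0.0242, 0.0353 and 0.0392, or 1.72 per 100 bp. The 100 peaks nearest to it in width had a median of 2 sites, and it stood at percentile 96.0 among them. Its best site was closer to the motif than those of IRX8 and IRX10 but less close than those of CESA8 and FRA8, and 37.9% of all peaks held a site with a q as low. The second peak held 2 sites, at 0.00897 and 0.0295, so the best match of the weak peak was of the same order as that of the strong one.

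IRX10 (AT1G27440, listed by RefSeq as GUT2), a xylosyltransferase of the backbone, had the weakest peak of the group. It spanned chr1:9531524-9531749, 226 bp, with a fold of 2.95, and the gene stood at percentile 3.51 by fold among genes with a peak. By −log10 q, 6.92, the same gene stood at percentile 38.0, above CESA8 and FRA8. The fold was low for that q: the 100 peaks nearest in −log10 q had a median fold of 4.23, and the IRX10 peak lay at percentile 3.00 among them. For the other 5 peaks of the group this percentile ran from 26.0 to 87.0. The IRX10 peak held 1 site with a q of 0.0419, close to the limit of the list, and 94.0% of all peaks held a site with a q as low. It was the only one of the 6 peaks without a site at a q of up to 0.01. What sets the low fold of this peak was not tested.

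**Figure D2:**
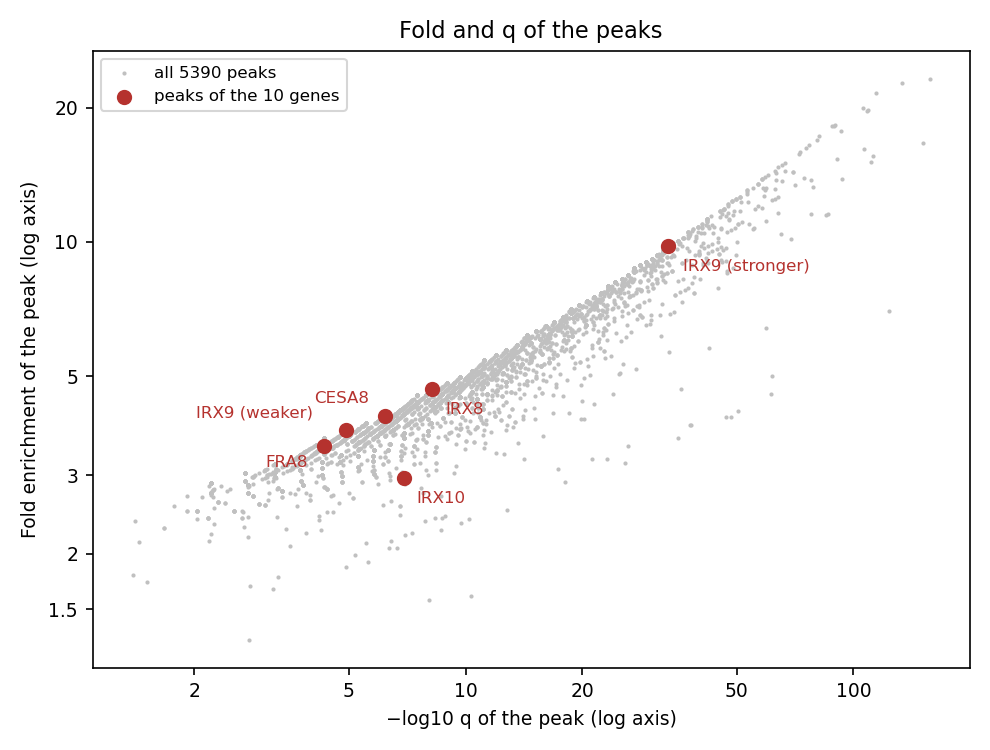
Fold enrichment against −log10 q for the 5390 peaks (grey), both on log axes, with the 6 peaks of the secondary-wall genes in red. The IRX10 peak, at 2.95 and 6.92, lies below the main band of peaks. The stronger IRX9 peak, at 9.77 and 33.3, lies in the upper part of that band.

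No peak was assigned to IRX9-L (AT1G27600), the close relative of IRX9, or to IRX14 (AT4G36890). Close relatives of IRX10, IRX14 and FRA8 were looked up in a list of 33 wall genes, and none were looked up for IRX8 or PARVUS. Of 5 pairs of relatives picked by name, 1 had a peak at both genes, 3 at 1 gene and 1 at neither. Over all single genes the share with a peak was 14.7%, and other pairs of relatives were not counted. Both genes of the pair IRX15 and IRX15-L lie outside the group. FRA8 and its homologue F8H both carried a peak, with like folds of 3.48 and 3.42. IRX9 had a peak without IRX9-L, IRX10 without IRX10-L, and IRX15-L, at 4.52, without IRX15. IRX14 and IRX14-L had none.

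Of the reducing-end genes 2 of 3 carried a peak, beside 14.7% of all genes, and 3 genes are few for such a share. IRX8 (AT5G54690, also called GAUT12), a member of the galacturonosyltransferase family, had a peak of 362 bp at chr5:22221793-22222154 with a fold of 4.68 and a −log10 q of 8.21. The gene stood at percentile 56.1 by fold and 48.4 by −log10 q, near the middle. This was the widest of the 6 peaks, at percentile 89.9 of widths in the whole list, yet it held 2 sites, with q values of 0.00965 and 0.0426, against a median of 3 in the 100 peaks nearest in width. Its fold was also below the median of those 100 peaks, 5.98.

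FRA8 (AT2G28110, also called IRX7), a glycosyltransferase gene named after a fragile fibre mutant, had a peak of 254 bp at chr2:11979180-11979433. Its fold of 3.48 and −log10 q of 4.31 were low, at percentile 15.8 by fold and 12.5 by q among genes with a peak. It held 3 sites with q values of 0.00671, 0.0188 and 0.0328, and 17.0% of all peaks held a site with a q as low as its best. FRA8 was thus weak in fold with more sites than IRX8. PARVUS (AT1G19300, also called GATL1) had no assigned peak.

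**Figure D3:**
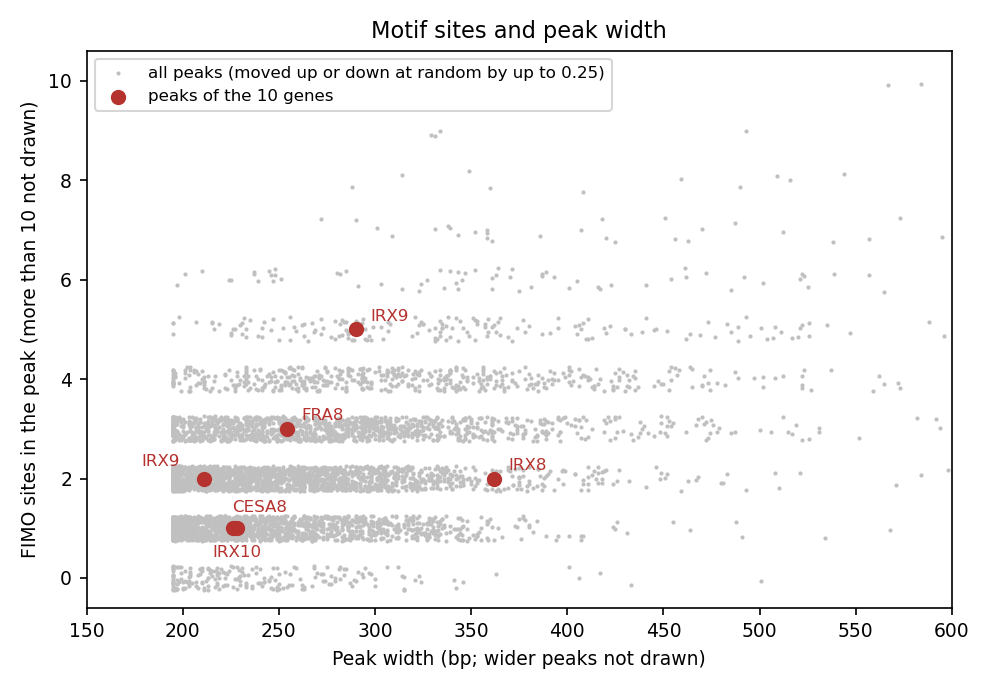
Number of FIMO sites (vertical) against peak width in bp (horizontal) for all peaks (grey, moved up or down at random by up to 0.25 so that they can be told apart) and the 6 peaks of the secondary-wall genes (red). The stronger IRX9 peak holds 5 sites in 290 bp, and the IRX8 peak 2 sites in 362 bp.

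In all, the 6 peaks held 14 sites, and each held at least 1, as did 96.3% of all peaks. The number of sites had a median of 2 in the 6 peaks and 2 in the whole list. Per 100 bp the medians were 0.750 and 0.823. A site with a q of up to 0.01 was present in 5 of the 6 peaks, against 47.3% of all peaks. The peaks of CESA8 and FRA8 held the closest matches, whereas IRX9, with the highest fold, had more sites of a middling match.

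Counting stricter peaks shortened the set of genes quickly. With peaks in the upper 50% by fold, 2 of the 10 genes were left, IRX9 and IRX8, against 7.81% of all genes. With a −log10 q of at least 10, IRX9 alone was left, 1 of 10, against 6.07%. With peaks that held a site at a q of up to 0.01, 4 genes were left, CESA8, IRX9, IRX8 and FRA8, against 7.63%. No gene was lost where any FIMO site was required (5 of 10, against 14.2%). The share of the 10 genes was above that of all genes in each setting, but by fold or q it rested on 1 or 2 genes, and at 1 of 10 it was close to the background.

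The wider wall list, of genes outside the 10, had a peak at 9 of 33 genes (27.3%), again beside 14.7% of all genes. The strongest folds of these 9 had a median of 4.52, close to the 4.47 of all genes with a peak, and 3 lay above the upper quartile. Primary-wall cellulose synthases carried a peak in 3 of 7 cases. CESA6 (AT5G64740) had a fold of 5.72 in a peak with no FIMO site, CESA1 (AT4G32410) had 4.83 with 2 sites, the closer at a q of 0.00462, and CESA9 (AT2G21770) had 4.22 with 1 site. CESA8 at 4.08 thus lay below all 3, and no difference between the kinds of synthase was tested. CESA2, CESA3, CESA5 and CESA10 had no assigned peak.

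None of the 6 genes for cellulose accessory proteins had a peak, beside 14.7% of all genes, and 6 genes are few for such a share. They are CSI1, KOR1, COBL4, COB, CTL1 and CTL2. For xylan the highest fold of the list was at GUX2 (AT4G33330; chr4:16061482-16061810), which adds glucuronic acid side chains, with 10.9 and 4 sites, all at a q of 0.0236 or more. GUX2 was therefore above IRX9 in fold but held no site at a q of up to 0.01. The other side-chain genes, GUX1, GUX3, GXM1, GXM2 and GXM3, had none. Among genes needed for wall acetylation, RWA4 (AT1G29890; chr1:10462862-10463184) had 7.61 with 5 sites and RWA2 (AT3G06550) had 3.42 with 1, while RWA1, RWA3 and TBL29 had none. The UDP-xylose synthase gene UXS6 (AT2G28760) had 3.63 with 2 sites, and UXS3, UXS5 and the UDP-xylose transporter gene UXT1 had none. IRX9, GUX2 and RWA4 had the highest −log10 q of the 43 wall genes looked at, at 33.3, 41.6 and 34.7. By −log10 q they stood at percentiles 95.4, 97.1 and 95.8 among all genes with a peak.

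The genes next to the 10 along the chromosomes were also counted, and no difference between stretches was tested. Within 10 places of a gene of the group in chromosome order, 33 of 198 other genes had an assigned peak (16.7%), beside 14.7% of all genes. The share was 17.0% around the 5 genes with a peak and 16.0% around the 5 without. Within 20 places these shares were 20.5% (41 of 200 genes) and 14.5% (29 of 200), and within 5 places 16.0% and 14.0%, so the gap depended on the window. IRX10 and IRX9-L lie within 20 places of each other, and in that split each was counted as a neighbour of the other. For each of the 5 genes without a peak, the nearest gene with a peak was looked up. The gene directly after CESA7, BBM (BABY BOOM, an embryogenesis regulator), had a fold of 5.27, and the gene directly before IRX14, CP1, had 3.49. The second gene after CESA4, AT5G44050, had 4.83. IRX9-L had its nearest gene with a peak 3 places away and PARVUS 6 places away. Between the nearest assigned peaks on either side, no peak without a gene was listed around CESA4, CESA7, IRX9-L or IRX14, and 2 were listed around PARVUS. The authors' rule for assigning a gene to a peak is unknown here, so a gene with no assigned peak may still have one nearby that was given to a neighbour.

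**Figure D4:**
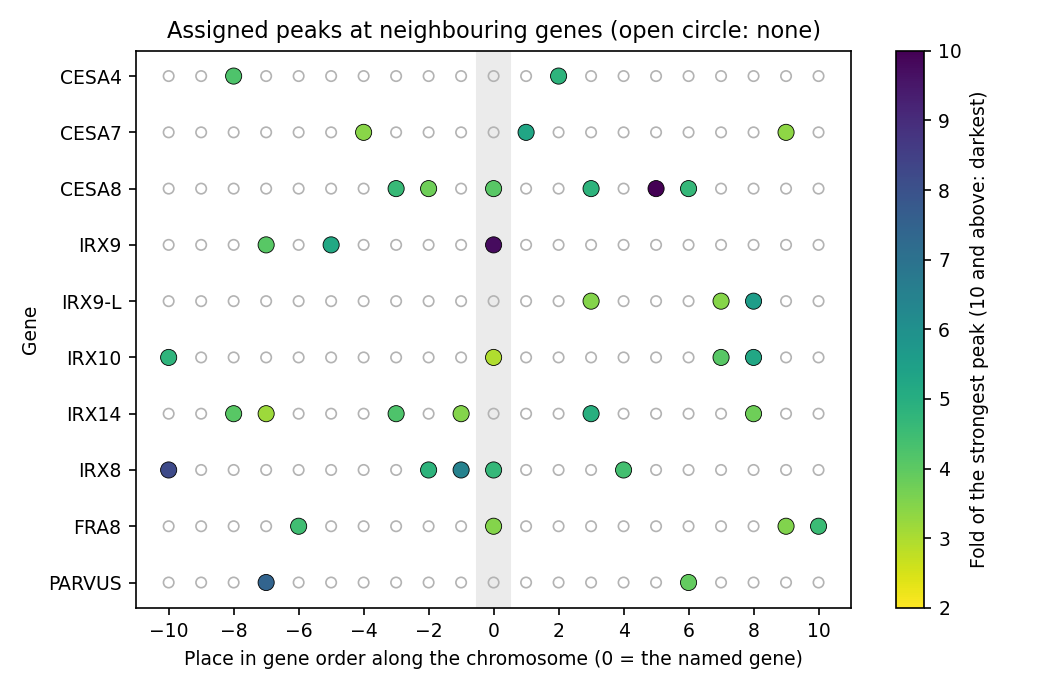
Genes within 10 places of each of the 10 secondary-wall genes in chromosome order (horizontal, 0 is the named gene), filled where a peak was assigned and coloured by the fold of the strongest peak, open where none was. Filled circles make up 33 of the 198 neighbouring genes, 17.0% around genes with a peak and 16.0% around genes without.

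The neighbours of genes with a peak included some of higher fold. The gene directly before IRX8, ILR3, had a fold of 6.47, above the 4.68 of IRX8. IRX9 lay 5 places from PAL1, a gene of the entry enzyme of phenylpropanoid synthesis, which had 5.22, and the stronger IRX9 peak was well above it. Around CESA8, 5 of 20 neighbouring genes had a peak, the highest 13.4 at AT4G18823, 5 places away. These neighbours were picked after their values were seen.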

How the data were processed

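Per the submitters' processing notes, which give no order or settings, the tools were MACS3 3.0.0a7, HOMER, STAR 2.7.10a, Trimmomatic 0.39, Picard 2.27.1, bedtools and FastQC, and the build was TAIR10. The deposited peak list gives each peak's fold enrichment (a ratio), −log10 p and −log10 q, a score made from q, and a summit. The authors' deposited gene table repeats the fold and the q-value and adds at most 1 gene per peak. FIMO sites were kept up to a q-value of 0.05, per the name of the deposited site list. How the 2 MYB67 libraries and 2 empty-vector libraries were combined is unknown here. A fold is set by the modelled background as well as by binding, and wider peaks have more room for sites. Site entries with the same peak and the same q as an earlier entry (311 of 12446) were each counted, since they may be separate sites.

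Peaks were joined to genes as the authors' table gives them, and genes were named and ordered by a RefSeq table of TAIR10.1, in which all 43 wall genes matched by locus identifier. Its coordinates were not used, so peaks were not placed in promoters, exons or introns. Positions are those of the peak list, counted from 1. A gene's value is its strongest peak. Percentiles count ties as 0.5. Python 3.11.15 and pandas 2.3.3 were used, and the counting was tested on simulated data. The 10 genes and the wall list were chosen with earlier results of these data known, so no p-value is given. The text names all 10 genes, and the genes of the wall list with values where they have a peak.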

Additional observations from a re-analysis of the deposited data

How the results depend on the processing

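The counts of genes with a peak moved with the peaks counted. With peaks in the upper 50% by fold the 10 genes gave 2 and the wider wall list 5, and with a −log10 q of at least 10 they gave 1 and 4. With a site at a q of up to 0.01 the 10 genes gave 4, and the wider list fell from 9 to 4. With any FIMO site they gave 5 and 8. The median strength of the 5 genes stayed between percentile 36.2 and 38.0 of genes with a peak by fold, −log10 q or summed fold. The middle gene changed, however, from CESA8 by fold and summed fold to IRX10 by −log10 q. Single genes moved more: IRX10 stood at 3.51 by fold and 38.0 by −log10 q, and CESA8 at 37.2 and 30.3. The median percentile of the 6 peaks by number of sites was 46.0, and 47.0 per 100 bp. It was 46.9 with entries of the same peak and q counted once, and 73.2 with sites at a q of up to 0.01. The last value is the tied percentile of every peak with exactly 1 such site, as 5 of the 6 peaks had. The share of neighbouring genes with a peak was 15.0% within 5 places and 17.7% within 20, both added after seeing the data.

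No paired analysis was possible because no deposited column belongs to a single library, so no library was left out either. The planned search for the motif in promoter windows was not run, since no promoter sequences were used here. Depth per library is unknown.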

Other observations

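The summits of 2 peaks of the group lay off centre. The summit of the IRX8 peak was 59.5 bp before the middle of the peak and that of the CESA8 peak 48.5 bp before it, whereas the median distance over all peaks was 18.0 bp and the upper quartile 32.5 bp. The FRA8 summit lay within 0.5 bp of the middle, and those of IRX10 and of the IRX9 peaks 28.5, 21.5 and 11.0 bp from it.

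Fold and q take a limited set of values in this list, so ranks of weak peaks are coarse. Of the 5390 peaks 4222 (78.3%) shared both values exactly with another peak. The weaker IRX9 peak shared them with 140 other peaks, CESA8 with 121, FRA8 with 100 and IRX8 with 99, against 4 for the stronger IRX9 peak and 2 for IRX10. Differences in fold among CESA8, FRA8 and IRX8 are thus steps between a few common values.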
